A study of Mus musculus with 2 samples.

Results

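The thalamic glutamatergic identity transcription factors described here are the 10 genes Gbx2, Lhx2, Lhx9, Tcf7l2, Rora, Rorb, Foxp2, Lef1, Prox1 and Shox2, chosen by name out of the 32285 genes of the count tables. All 10 passed the filter on low counts. Which of them occur together in single cells was read in cells with at least 2 UMIs of Slc17a6 and at least 10 UMIs of Snap25 and Syt1 together, a gate for excitatory neurons. Slc17a6 encodes a vesicular glutamate transporter, Snap25 and Syt1 encode proteins of synaptic release, and a UMI (unique molecular identifier) marks 1 captured RNA molecule. The gate held 448 of 6185 kept cells of mouse 1 and 2218 of 9176 kept cells of mouse 2. The samples were thalamic tissue of 2 untreated wildtype C57BL/6J mice, 2 months old, dissociated with enzymes and sequenced as 1 droplet library (10x Genomics, 3' ends) per animal. Both animals form a single group, so every comparison is between cell classes of the same animals.

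Thalamic relay neurons arise in a part of the diencephalon patterned by Wnt and Shh signals, and they carry sensory, motor and limbic signals to the cortex. Tcf7l2 and Lef1 are HMG-box factors that turn Wnt signals into transcription together with beta-catenin, Rora and Rorb are orphan nuclear receptors, Lhx2 and Lhx9 are LIM-homeodomain factors and Gbx2 and Shox2 are homeodomain factors. Prox1 is a divergent homeodomain factor and Foxp2 a forkhead repressor. Outside neurons, Tcf7l2 is known as a stage marker of maturing oligodendrocytes and Lef1 as a Wnt effector in the endothelium of the blood-brain barrier.

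Promoter windows from RefSeq (GRCm38.p6) matched 9 of the 10 members, all but Foxp2, with 16 start sites in all. The 250 bases upstream of each start were searched on both strands for the TCF/LEF core CTTTGA, the ROR core AGGTCA and the homeodomain core TAATTA, none of which contains another. CTTTGA was found in 13.8% of 32851 windows of all genes and in 2 of the 16 member windows, that of Shox2 and that of an internal start of Lef1. AGGTCA was found in 14.0% and TAATTA in 4.84% of all windows, and both in 0 of the 16. The windows with a match are printed because they carry the letters that the Wnt effectors among the members are known to bind, and the main Rora and Rorb windows as windows without any of these cores, from a pair of paralogs that both had astrocytes as their highest class. All are written 5′ to 3′ on the strand of the gene, with the TCF/LEF core (read here as its reverse complement) in capitals.
Shox2: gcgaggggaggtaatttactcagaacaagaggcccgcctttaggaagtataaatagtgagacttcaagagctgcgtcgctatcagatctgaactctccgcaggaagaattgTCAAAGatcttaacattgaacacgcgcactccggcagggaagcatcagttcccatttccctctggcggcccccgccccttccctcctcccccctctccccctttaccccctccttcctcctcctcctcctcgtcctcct
Lef1 internal start: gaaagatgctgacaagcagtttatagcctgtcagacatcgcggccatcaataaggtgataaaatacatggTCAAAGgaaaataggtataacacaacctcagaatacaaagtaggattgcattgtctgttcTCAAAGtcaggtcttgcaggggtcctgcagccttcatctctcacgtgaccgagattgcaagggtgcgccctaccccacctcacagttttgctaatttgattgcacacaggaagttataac
Rora: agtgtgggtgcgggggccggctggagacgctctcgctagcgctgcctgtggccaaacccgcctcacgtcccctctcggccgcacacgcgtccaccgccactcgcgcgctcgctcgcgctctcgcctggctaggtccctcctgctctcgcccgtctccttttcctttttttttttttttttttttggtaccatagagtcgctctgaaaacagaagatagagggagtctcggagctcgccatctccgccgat
Rorb: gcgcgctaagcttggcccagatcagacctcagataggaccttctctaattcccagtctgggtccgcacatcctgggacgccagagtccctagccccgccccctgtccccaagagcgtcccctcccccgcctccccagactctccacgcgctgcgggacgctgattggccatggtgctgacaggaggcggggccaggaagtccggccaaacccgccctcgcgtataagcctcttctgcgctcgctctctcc
The Shox2 window is chr3:66981772-66982021 on the minus strand, with the core beginning 139 bases upstream of the start. The Lef1 window is chr3:131156044-131156293 on the plus strand, inside the gene and outside its annotated exons, with the core 180 and 120 bases upstream. The Rora window is chr9:68653536-68653785 on the plus strand and the Rorb window chr19:19111197-19111446 on the minus strand. A match describes the letters of a window and was not tested as a binding site.

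The libraries held 163418203 UMIs in 7889 barcodes (mouse 1) and 204839993 UMIs in 12107 barcodes (mouse 2), and shared 36 barcodes, 15 of them among kept cells. Clusters were named from marker genes with the members held out of the clustering genes, so each class is "-like" and is written by its name alone from here on. Of the gated cells, 278 (62.1%) of mouse 1 and 1675 (75.5%) of mouse 2 lay in thalamic glutamatergic clusters. A further 132 (29.5%) and 276 (12.4%) lay in habenular clusters, led by genes such as Tac2, Pou4f1 and Gpr151, so the gate held more than thalamic relay neurons. Neurons of clusters without a clear name made up 32 and 259 gated cells and stayed out of the comparisons. Outside the gate, a cluster of 172 and 516 cells led by Klk6 and S100b also stayed without a name. It had 8 detected markers of mature oligodendrocytes, and it is not part of the mature oligodendrocyte class below. Slc17a6 stood at 258 to 914 counts per 1000000 UMIs (CPM) in the glutamatergic clusters, where Gad1 and Gad2 together stood at 1.41 to 15.6 CPM. The mice differed in the makeup of the class: the cluster with C1ql3, Nptxr and Calb2 among its leading genes held 19 gated cells of mouse 1 and 538 of mouse 2. The part of this makeup in the members' differences between mice was not tested.

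In the account of levels, pairs of values are mouse 1 and mouse 2, as CPM of the counts summed per class, and an order is given only where the values of neighbouring classes do not overlap. Fewer cells with a transcript and less RNA per cell cannot be told apart in such sums. Tcf7l2 stood at 1393 and 1392 CPM (mean 1392 ± 0.590, SD, n = 2) in glutamatergic cells, at 808 and 852 CPM in habenular cells and at 567 and 557 CPM in GABAergic cells. The latter overlapped with astrocytes, at 651 and 525 CPM. Committed oligodendrocyte precursors had more Tcf7l2 than any of the other 12 classes, 1582 and 1432 CPM, and mature oligodendrocytes had 81.9 and 83.7 CPM. Lef1, in contrast, was highest in endothelial cells, at 834 and 859 CPM. Glutamatergic cells came next with 486 and 366 CPM (mean 426 ± 85.0, SD, n = 2), then habenular cells with 116 and 90.8 CPM and pericytes with 64.2 and 74.5 CPM. None of these 4 classes overlapped in Lef1.

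Rora, a nuclear receptor of the circadian clock and of neuronal maturation, was highest in astrocytes, at 4163 and 3434 CPM, and next in fibroblasts, at 2943 and 2885 CPM. Glutamatergic cells had 2566 and 2241 CPM (mean 2403 ± 230.3, SD, n = 2), which overlapped with oligodendrocyte precursors at 2363 and 1724 CPM. GABAergic cells had 725 and 669 CPM and habenular cells 263 and 204 CPM, so the neuron classes themselves did not overlap. Its paralog Rorb, known from sensory relay circuits, also ranked astrocytes first, at 855 and 1045 CPM. Glutamatergic cells followed with 328 and 443 CPM (mean 386 ± 81.3, SD, n = 2), and habenular cells had 17.8 and 13.7 CPM. GABAergic cells differed between the animals, at 179 and 55.5 CPM, and overlapped with oligodendrocyte precursors at 92.5 and 129 CPM.

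The LIM-homeodomain paralogs ranked glutamatergic and habenular cells in opposite orders, and both were lowest among the neurons in GABAergic cells. Lhx2 stood at 28.3 and 46.5 CPM (mean 37.4 ± 12.9, SD, n = 2) in glutamatergic cells and at 10.7 and 18.6 CPM in habenular cells. Lhx9 stood at 53.1 and 90.8 CPM (mean 71.9 ± 26.6, SD, n = 2) in glutamatergic cells and at 153 and 298 CPM in habenular cells, its highest class. In GABAergic cells Lhx2 had 0 counts in both mice and Lhx9 stood at 0.411 and 1.14 CPM. No non-neuronal class had more than 3.72 CPM of Lhx2 or 13.5 CPM of Lhx9 in either mouse.

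Gbx2 and Shox2, the homeodomain factors, had their highest level in glutamatergic cells, with no other class overlapping. Gbx2 stood there at 36.1 and 67.7 CPM (mean 51.9 ± 22.3, SD, n = 2), at 0.568 and 0.570 CPM in habenular cells and at 0 counts in GABAergic cells of both mice. Shox2 stood at 255 and 294 CPM (mean 274 ± 27.8, SD, n = 2) in glutamatergic cells. Oligodendrocyte precursors stood at 12.5 and 24.1 CPM, which overlapped with habenular cells at 3.98 and 12.6 CPM.

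Prox1, known for its role in cell-cycle exit and lymphatic identity, was highest in mature oligodendrocytes, at 227 and 251 CPM. Glutamatergic cells had 131 and 204 CPM (mean 168 ± 51.9, SD, n = 2), oligodendrocyte precursors 58.5 and 60.1 CPM and habenular cells 42.5 and 29.96 CPM. Foxp2, known for its part in vocal and motor circuits, was highest in glutamatergic cells, at 475 and 654 CPM (mean 564 ± 126, SD, n = 2). Habenular cells differed between the animals in Foxp2, at 149 and 443 CPM, and overlapped with fibroblasts at 133 and 193 CPM.

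**Figure D1:**
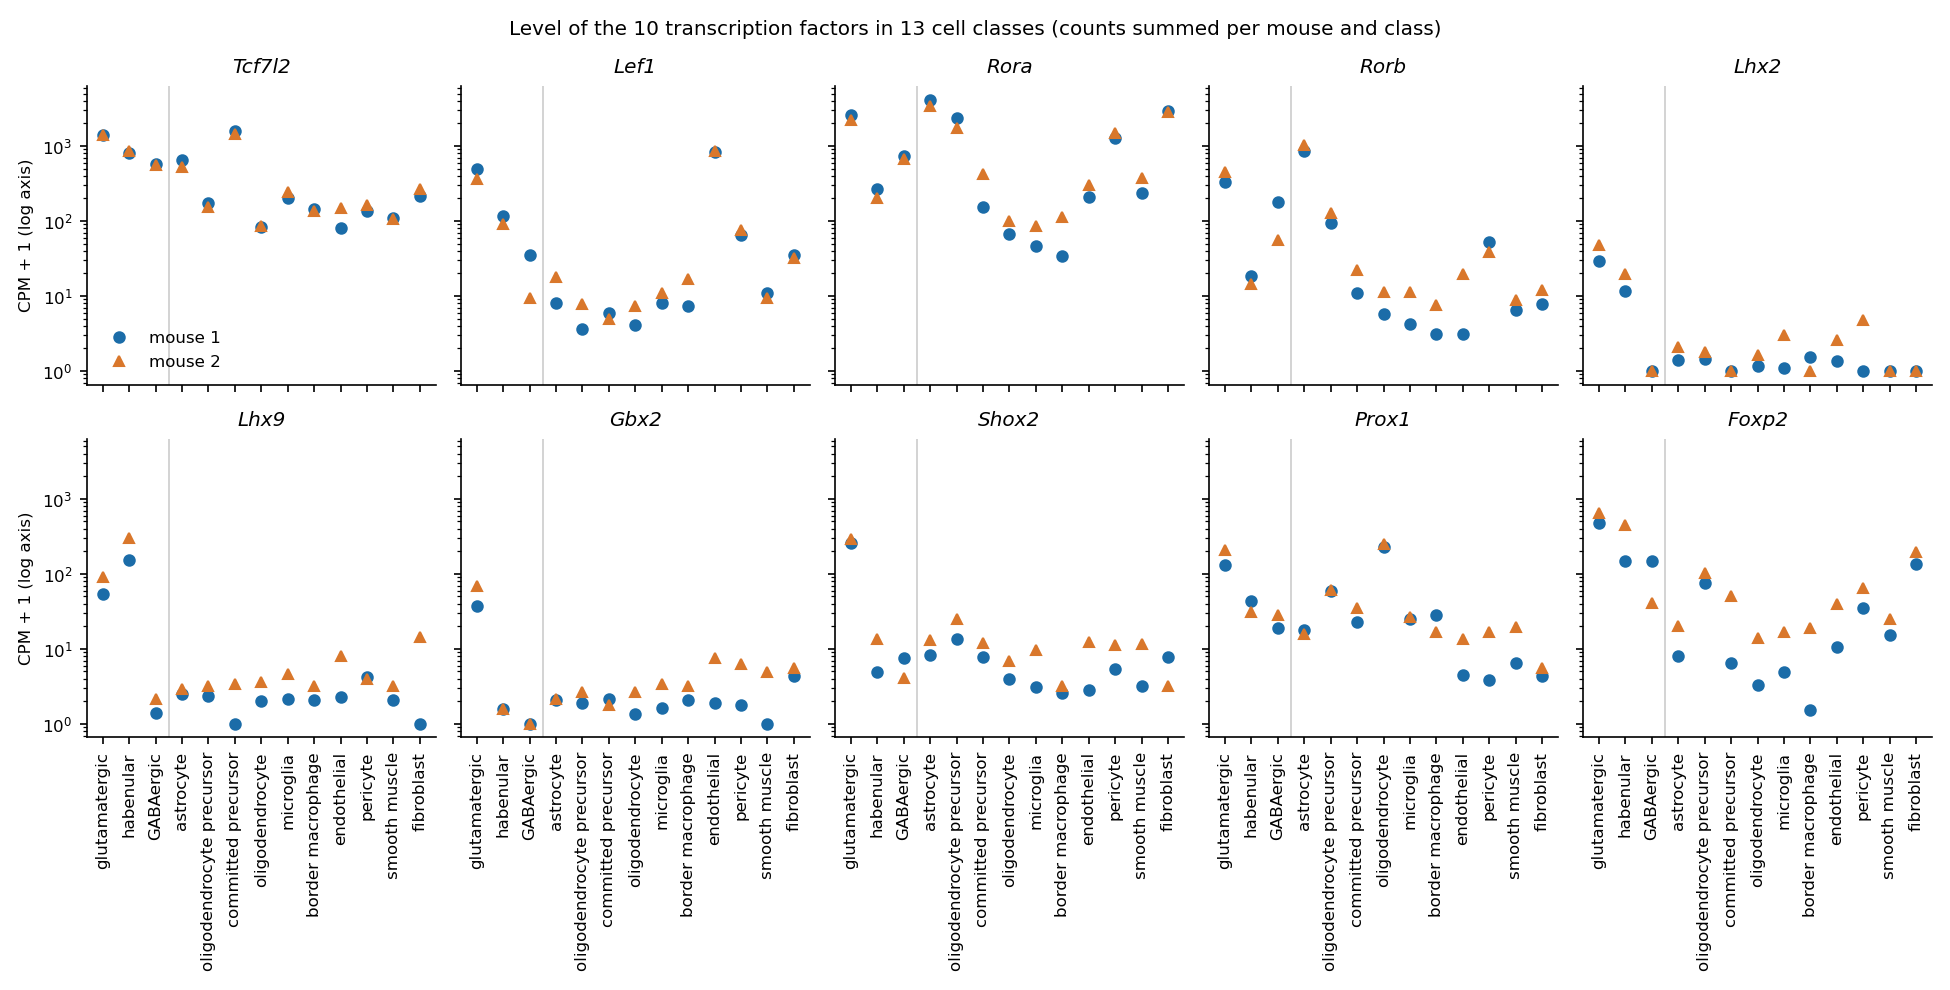
Level of each transcription factor (y axis, CPM + 1, log scale) in 13 cell classes, with 1 point per mouse. Gbx2 and Shox2 stand out in glutamatergic cells, whereas Rora and Rorb peak in astrocytes, Lef1 in endothelial cells, Prox1 in mature oligodendrocytes, Lhx9 in habenular cells and Tcf7l2 in committed precursors.

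The habenula lies beside the thalamus and its neurons also use Slc17a6, so the first comparison asked which members separate glutamatergic from habenular cells. Calls needed an adjusted p (Benjamini-Hochberg) below 0.05 in edgeR's quasi-likelihood test plus a log2 difference of 1 or more in size. On that rule glutamatergic cells were called higher for 7 of the 10 members and lower for 1, beside 11.8% and 8.42% of all 16820 tested genes. Gbx2 was higher by 6.70 ± 0.62 (log2 fold change ± SE, adjusted p = 2.13e-07), Shox2 by 5.35 ± 0.49 (adjusted p = 1.12e-07) and Rorb by 4.68 ± 0.67 (adjusted p = 2.72e-05). Smaller differences were called for Rora (3.47 ± 0.48), Prox1 (2.25 ± 0.41), Lef1 (2.15 ± 0.45) and Lhx2 (1.502 ± 0.49, adjusted p = 0.0360). Lhx9 was lower, at -1.503 ± 0.31 (adjusted p = 0.00111). Foxp2 (1.26 ± 0.66, adjusted p = 0.188) missed the p threshold, and Tcf7l2 (0.85 ± 0.25, adjusted p = 0.0165) stayed under the fold limit. The median over the members was 2.20, beside 0.05 over all tested genes. Each of the 10 members had the same direction in both mice.

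This comparison depended on how habenular cells were chosen. When gated cells were divided by at least 5 UMIs of a habenular marker panel in place of clusters, 3 members were called: Lef1 (1.75), Rora (1.79) and Shox2 (1.42). Of all 16771 tested genes, 469 were then called higher and 704 lower, against 1982 and 1416 of 16820 with clusters. The panel placed 229 and 534 cells in the habenular group, against 132 and 276 with clusters. Their median depth was 64175 and 38217.5 UMIs, against 52392 and 31484. The part of depth in this change was not tested. Gbx2 (0.97), Rorb (1.26), Prox1 (0.74) and Lhx9 (-0.99) kept their direction without a call, and Lhx2 (-0.28) and Foxp2 (-0.35) changed sign. Lhx2 also lost its call in DESeq2's Wald test (adjusted p = 0.191), with DESeq2's size factors (0.0521) and with at most 5% mitochondrial UMIs (0.0574). Without the mouse as a block the adjusted p was 0.287 for Lhx2 and 0.0778 for Lhx9 in edgeR's test.

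Against GABAergic neurons of the same dissection, 9 of the 10 members were called higher in glutamatergic cells and 0 lower, beside 5.93% and 4.21% of all tested genes. Gbx2 and Lhx2 had 0 counts among 5065306 UMIs of GABAergic cells. Against a floor of 3 counts over that class, which is 0.592 CPM, Gbx2 was at least 101-fold and Lhx2 at least 71.0-fold higher in glutamatergic cells. On the log2 scale Lhx9 was higher by 6.79 ± 0.55, Shox2 by 6.10 ± 0.55, Lef1 by 4.53 ± 0.52 and Prox1 by 3.09 ± 0.45. Foxp2 (2.46 ± 0.70, adjusted p = 0.0247 in edgeR's test), Rora (2.01 ± 0.46) and Tcf7l2 (1.52 ± 0.26) differed less. Rorb, at 1.79 ± 0.60, was not called (adjusted p = 0.0582). Foxp2 lost its call without the mouse as a block (adjusted p = 0.125 in edgeR's test), with no gene filter (0.0943), with at most 5% mitochondrial UMIs (0.0657) and with the habenular marker panel (0.0532). Rorb gained a call with that panel (adjusted p = 0.0420) and with at least 5000 UMIs per cell (0.0420).

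Set against the 10 non-neuronal classes as an average, all 10 members were called higher in glutamatergic cells, beside 25.8% of tested genes higher and 14.5% lower. The differences ran from 2.49 ± 0.26 for Rora and 2.73 ± 0.15 for Tcf7l2 to 5.62 ± 0.24 for Shox2 and 7.65 ± 0.43 for Lhx2. The contrast is with an average, and Rora, Rorb, Lef1, Prox1 and Tcf7l2 each had a non-neuronal class above the glutamatergic one.

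**Figure D2:**
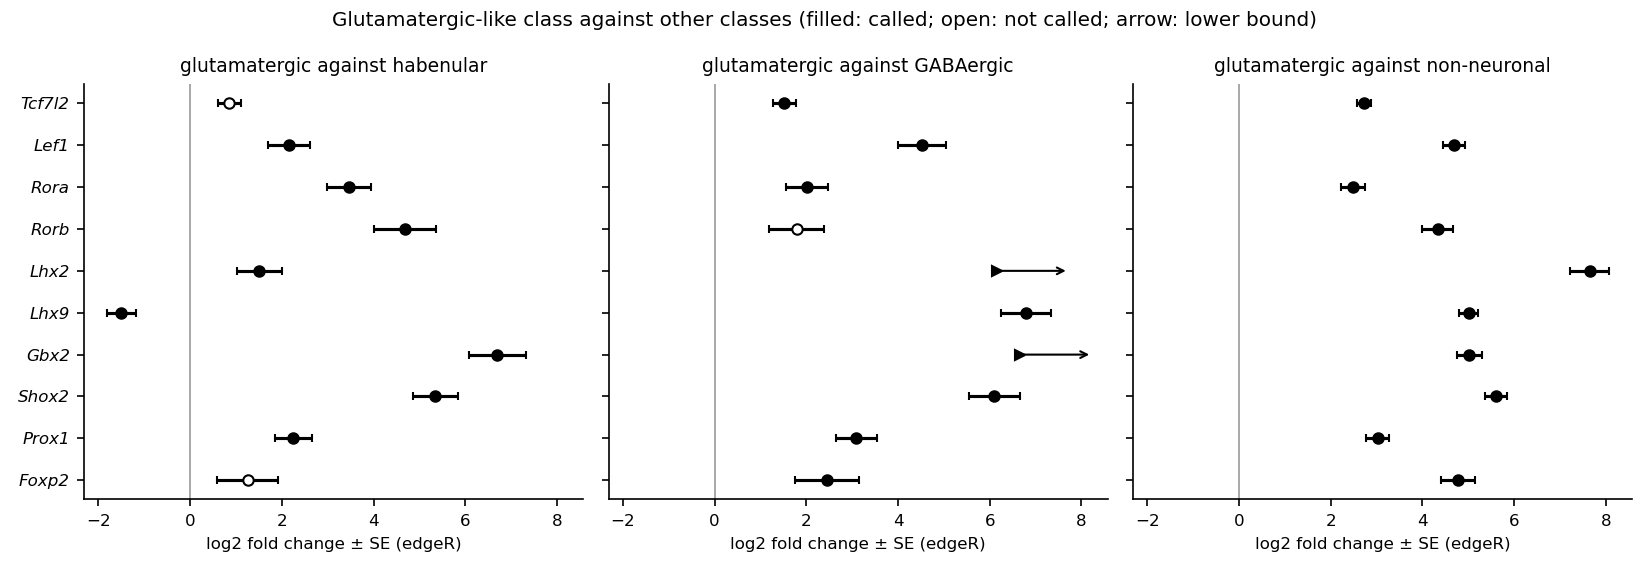
Log2 fold change of each member (± SE, edgeR) between glutamatergic cells and habenular, GABAergic or non-neuronal cells; arrows mark Gbx2 and Lhx2 against GABAergic cells, where only a lower bound can be given. Lhx9 against habenular cells is the only value below 0.

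To compare single cells of unequal depth, each cell was thinned to 10000 UMIs. The median depth before thinning was 87021.5 and 45101 UMIs in glutamatergic, 52392 and 31484 in habenular and 48961 and 39062 in GABAergic cells, and 2 and 25 glutamatergic cells were too shallow and left out. After thinning, Rora was detected in 98.0% and 99.9% of glutamatergic cells, Foxp2 in 88.9% and 93.8% and Lef1 in 84.3% and 76.3%. Shox2 was detected in 76.9% and 71.9%, Rorb in 67.7% and 82.5% and Prox1 in 65.6% and 78.1%. The least often detected were Lhx9 (36.3% and 48.9%), Gbx2 (22.0% and 34.7%) and Lhx2 (20.3% and 29.7%). Tcf7l2 was detected in 99.97% and 99.8%. Before thinning, Shox2 was seen in 98.6% and 87.8%, Rorb in 86.7% and 90.7%, Prox1 in 95.7% and 94.2%, Lef1 in 95.3% and 87.0% and Foxp2 in 98.9% and 97.4% of glutamatergic cells. The unthinned shares of the least often detected members were 85.3% and 79.0% for Lhx9, 57.9% and 58.4% for Gbx2 and 50% and 60.2% for Lhx2. The exact binomial 95% interval for Gbx2 before thinning was 51.9% to 63.8% in mouse 1 and 56.0% to 60.8% in mouse 2 and covers counting error only.

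Lhx9 was detected more often in habenular than in glutamatergic cells, in 71.1% and 82.7% of thinned cells (98.5% and 95.7% before thinning). Gbx2 was detected less often in habenular cells, in 0.677% and 0.580% (3.03% and 1.81% before). Of the GABAergic cells, 0 of 47 and 0 of 62 had a UMI of Gbx2, and as few had one of Lhx2, which allows a share of cells with a UMI of up to 6.38% and 4.84%. Rora was detected in 95.3% and 96.1% of thinned GABAergic cells and Tcf7l2 in 44.9% and 50.5%. Before thinning these shares were 97.9% and 100% for Rora and 59.6% and 71.0% for Tcf7l2.

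Most glutamatergic cells held several members at once. The median was 7 of 10 members per thinned cell in both mice, and the mean 6.598 and 7.14, against means of 4.12 and 4.30 in habenular, 2.59 and 2.10 in GABAergic and 3.33 and 3.39 in astrocyte cells. At least 8 members were detected in 22.8% and 41.3% of thinned glutamatergic cells, and all 10 in 1.81% and 4.30%. Before thinning, at least 8 were detected in 86.3% and 76.8%, and all 10 in 21.6% and 33.3%. The commonest combination in both mice was Tcf7l2, Rora, Rorb, Foxp2, Lef1, Prox1 and Shox2, without Gbx2 and the LIM factors, in 36 of 276 (13.04%) and 156 of 1650 (9.45%) cells. It was 1 of 88 combinations seen in mouse 1 and 1 of 145 in mouse 2, so glutamatergic cells did not share a single combination at this depth. Such counts rest on a random draw of UMIs: a separate draw over all gated cells found this combination in 29 of 444 and 156 of 2181 cells. Habenular cells most often held Lhx9, Tcf7l2, Rora and Lef1 in mouse 1, 15 of 132 (11.4%), and Lhx9, Tcf7l2, Rora and Foxp2 in mouse 2, 34 of 272 (12.5%). Astrocytes were more uniform, with Tcf7l2, Rora and Rorb and no other member in 565 of 816 (69.2%) and 90 of 147 (61.2%) cells.

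Some pairs of members went together within glutamatergic cells and others went apart. Lhx9 was detected in 64.7% and 63.3% of cells with Lhx2 and in 32.0% and 41.6% of cells without it. Shox2 was detected in 89.5% and 84.5% of cells with Gbx2 and in 76.3% and 64.5% without it. Conversely, Lhx2 was detected in 15.8% and 24.7% of the cells with Lef1 (234 and 1269 cells) and in 33.3% and 45.1% of those without it (42 and 381 cells). Lhx9 had the same direction, with 35.9% and 42.6% against 50% and 66.1%. These shares describe the cells of 2 animals and have no test.

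**Figure D3:**
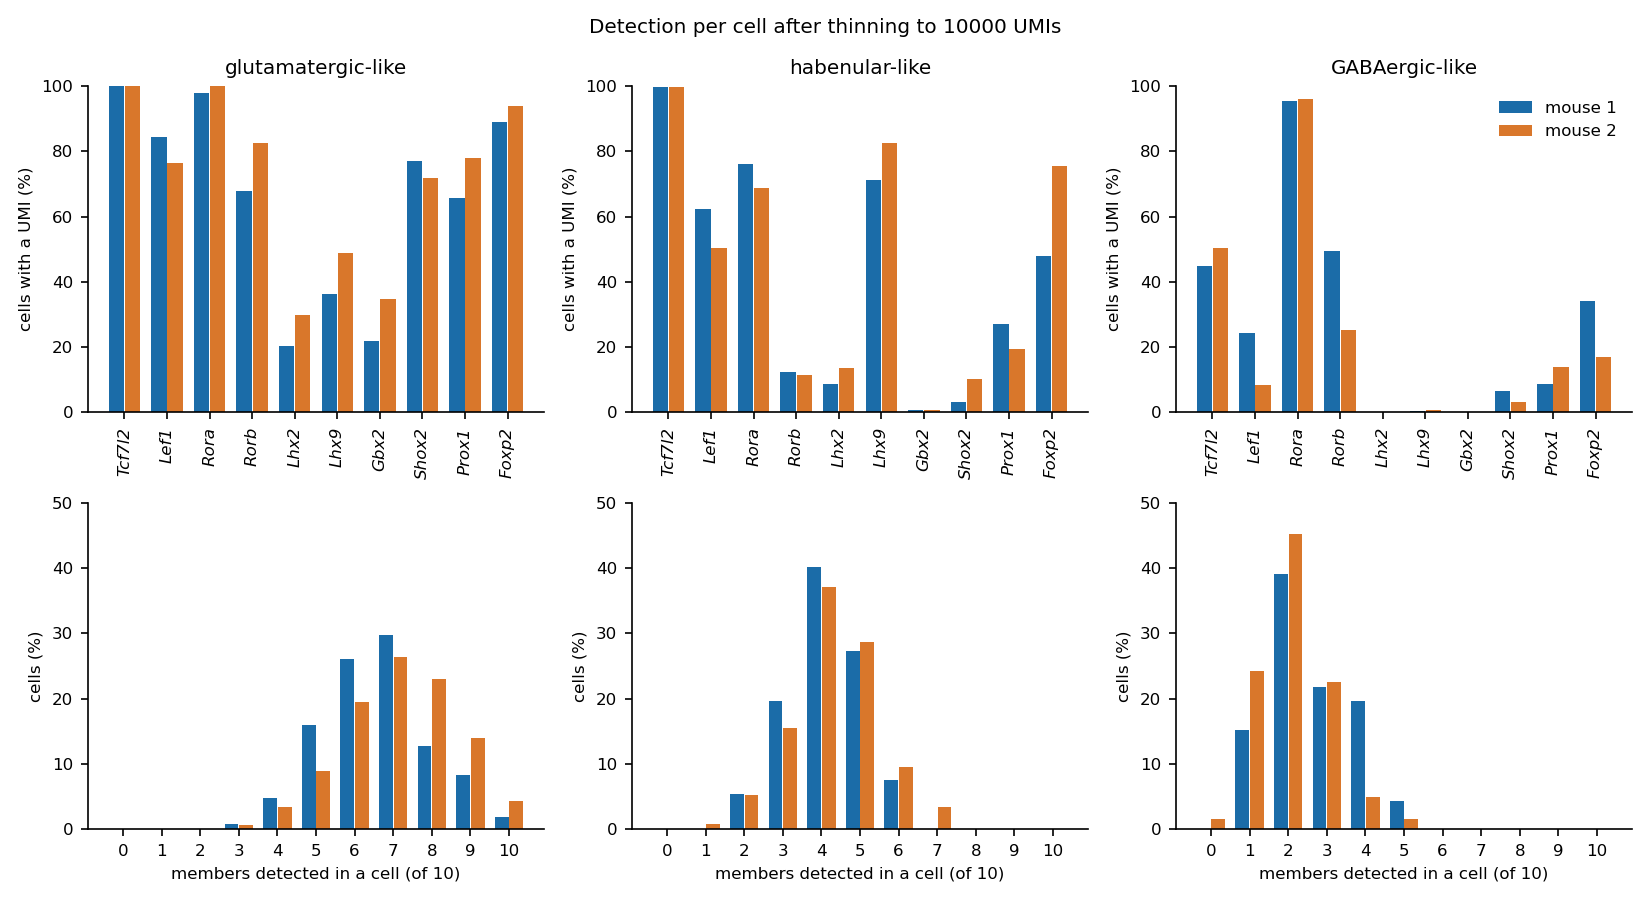
Share of cells (%) with at least 1 UMI of each member in glutamatergic, habenular and GABAergic cells of each mouse, and share of cells (%) by the number of members detected, all after thinning to 10000 UMIs. The median is 7 members in glutamatergic cells, 4 in habenular cells and 2 in GABAergic cells of both mice.

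The gated cells were clustered again with the members held out, and 6 subclusters had at least 20 cells in each mouse. Subclusters led by genes of vessels (Rgs5 and Flt1, 10 and 37 cells), microglia (C1qb, 7 and 8) and oligodendrocyte precursors (Pdgfra, 1 and 13) also lay in the gate, and their part in the shares above was not tested. In the subcluster led by Slc9a3r1, Ramp3, Tnnt1 and Prkcd (75 and 213 cells), Tcf7l2 (1775 and 1704 CPM), Lef1 (563 and 539 CPM) and Gbx2 (57.5 and 42.6 CPM) had their highest levels. In the subcluster led by Pvalb and Scn4b (30 and 36 cells), Rora (3544 and 3435 CPM), Rorb (596 and 727 CPM), Shox2 (444 and 431 CPM) and Prox1 (126 and 248 CPM) did. The subcluster led by Ctxn3, Cbln1 and Pdyn (65 and 66 cells) had the most Foxp2 (845 and 1272 CPM) and Lhx2 (49.7 and 54.8 CPM) and little Lef1 (125 and 74.0 CPM). These sets of members cannot overlap, since each member has only 1 highest subcluster among the 6. The sets depended on how finely the cells were divided. At a clustering resolution of 0.5 in place of 1, Rora, Rorb and Lef1 shared their highest subcluster and Gbx2, Tcf7l2, Shox2 and Prox1 another, while Foxp2 and Lhx2 stayed together. Over the 6 subclusters 7 members spanned at least 4-fold in each mouse. Of these 6, 2 were habenular and 1 had no clear name, and the lowest value lay in one of those 3 for 6 of the 7 members, all but Foxp2. Tcf7l2 spanned 2.45-fold and 2.24-fold.

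Most glutamatergic subclusters had too few cells in mouse 1, and their values come from mouse 2 alone. There, over 13 glutamatergic subclusters, Gbx2 ran from 1.47 to 146 CPM with a median of 22.5, and Lef1 from 42.2 to 922 CPM with a median of 375. The subcluster led by Rab3b, Slc30a3 and Calb2 had the most Gbx2, Lhx2 (101 CPM), Lhx9 (188 CPM) and Tcf7l2 (1806 CPM) and the least Lef1. The subcluster led by Abhd12b had the most Lef1 and Rora (4581 CPM) and the least Lhx2 (1.15 CPM). Foxp2 was highest, at 1815 CPM, in the subcluster led by Hs3st4, where Gbx2, Tcf7l2 (542 CPM) and Shox2 (29.4 CPM) were lowest. Shox2 (540.1 CPM) and Prox1 (319 CPM) were highest in the subcluster led by Gal and Col12a1.

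**Figure D4:**
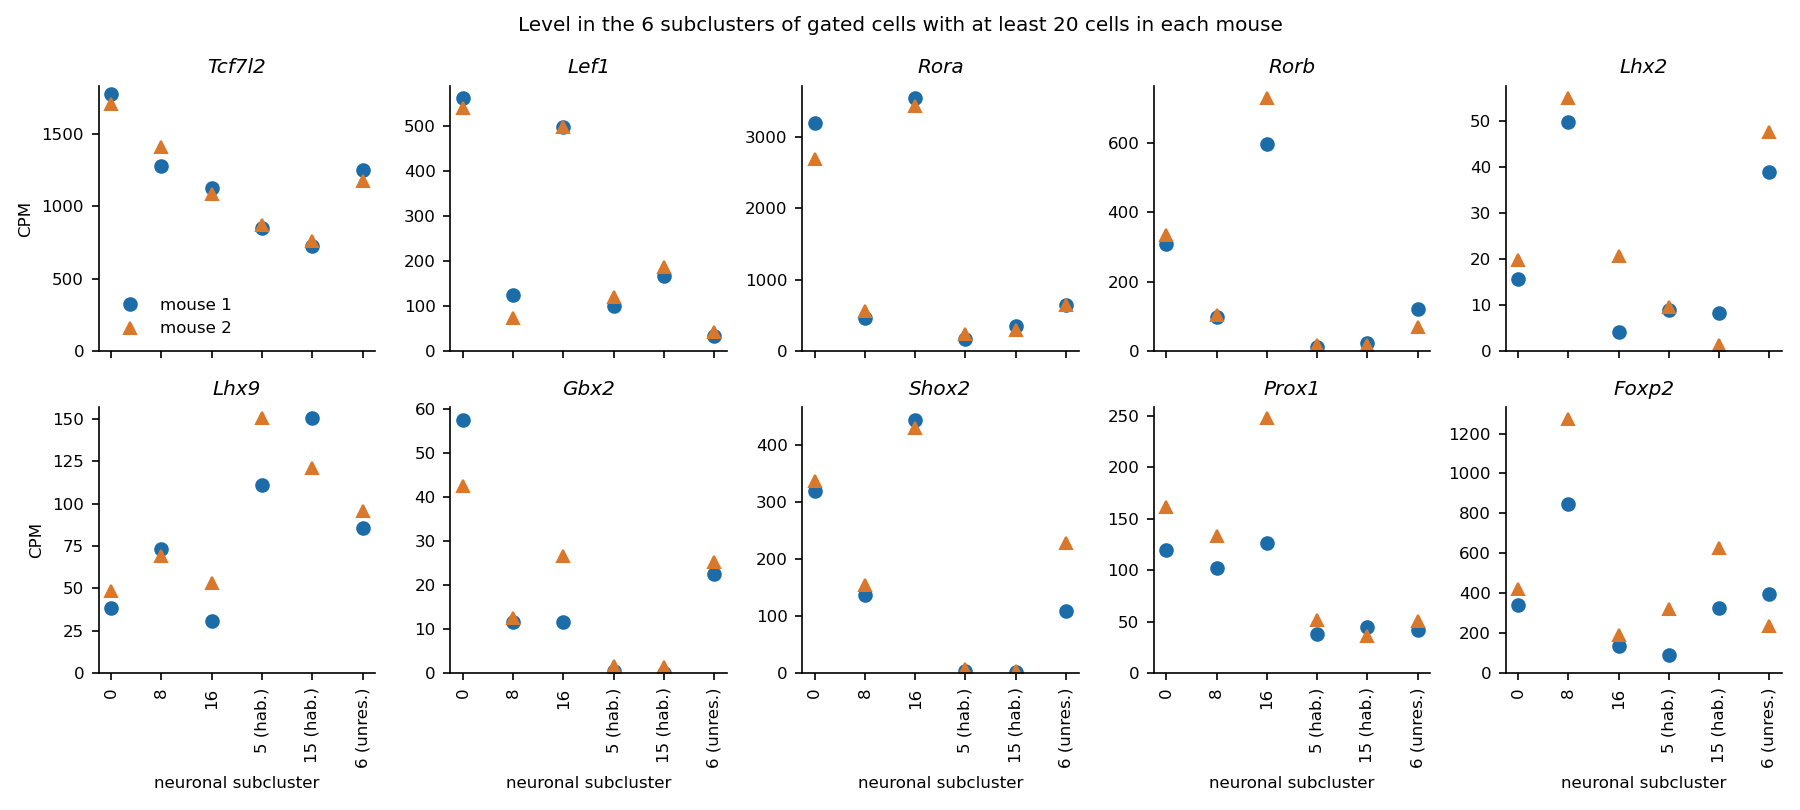
CPM of each member in the 6 neuronal subclusters with at least 20 cells in each mouse, with 1 point per mouse. Foxp2 and Lhx2 peak in subcluster 8 (Ctxn3, Cbln1), Shox2, Rora and Rorb in subcluster 16 (Pvalb, Scn4b) and Gbx2, Lef1 and Tcf7l2 in subcluster 0 (Ramp3, Tnnt1).

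Likeness of genes was measured as Pearson's r of log2(CPM + 1), over the 26 class sums and over the 12 subcluster sums, all from 2 libraries. Among the members, r over classes was 0.87 for Lhx2 and Lhx9, 0.80 for Gbx2 and Shox2 and 0.76 for Rora and Rorb. The ROR paralogs parted in fibroblasts, where Rora was second highest and Rorb stood at 6.80 and 11.2 CPM. Over subclusters the value was 0.96 for Rora and Rorb and 0.94 for Gbx2 and Shox2, and Lhx9 ran against Rorb (-0.91). These 12 sums include habenular subclusters and a subcluster without a clear name, and their part in these values was not tested. Of all other genes, those closest over classes were Abhd12b (0.91) for Gbx2, Nrn1 (0.93) for Lhx2, Slc17a7 (0.92) for Lhx9, Ptpn3 (0.88) for Shox2 and Samd5 (0.91) for Foxp2. They were Ldb2 (0.91) for Rora, Gabrb1 (0.93) for Rorb, Rflnb (0.91) for Lef1, Jakmip1 (0.86) for Tcf7l2 and Dgki (0.88) for Prox1.

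Free neuronal RNA in droplets can place counts of a neuronal gene in glia. Each member was therefore set against a panel of 7 neuronal genes (Snap25, Syt1, Stmn2, Slc17a6, Nefl, Nefm and Thy1), as the ratio of member to panel counts divided by that ratio in gated cells. A value near 1 is what neuronal RNA alone would carry. The panel itself stood at 1.02% to 6.99% of its gated level in the non-neuronal classes. In mature oligodendrocytes, microglia and endothelial cells, Gbx2, Lhx2, Lhx9, Shox2 and Foxp2 had ratios of 0.241 to 1.69 and are read as background there. Rorb (239 and 71.3), Rora (145 and 44.8) and Tcf7l2 (36.5 and 10.2) in astrocytes were far above it. So were Tcf7l2 in committed precursors (125 and 54.8), Prox1 in mature oligodendrocytes (203 and 54.2) and Lef1 in endothelial cells (90.3 and 39.9). Rora also stood above the panel in fibroblasts (90.9 and 44.0), pericytes (32.6 and 11.5) and oligodendrocyte precursors (24.0 and 13.5). These 9 pairs of member and class had ratios of at least 10 in each mouse; 18 pairs did in mouse 1, where the panel was lower in glia. With Snap25 and Syt1 left out of the panel 12 pairs did. Tcf7l2 in astrocytes then fell short (lower mouse 9.71), and Rorb (13.5) and Prox1 (13.5) in oligodendrocyte precursors, Prox1 in committed precursors (10.3) and Foxp2 in fibroblasts (10.8) were added. With at most 5% mitochondrial UMIs the latter pair, Prox1 in committed precursors and Foxp2 in fibroblasts, joined the 9, which made 11.

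**Figure D5:**
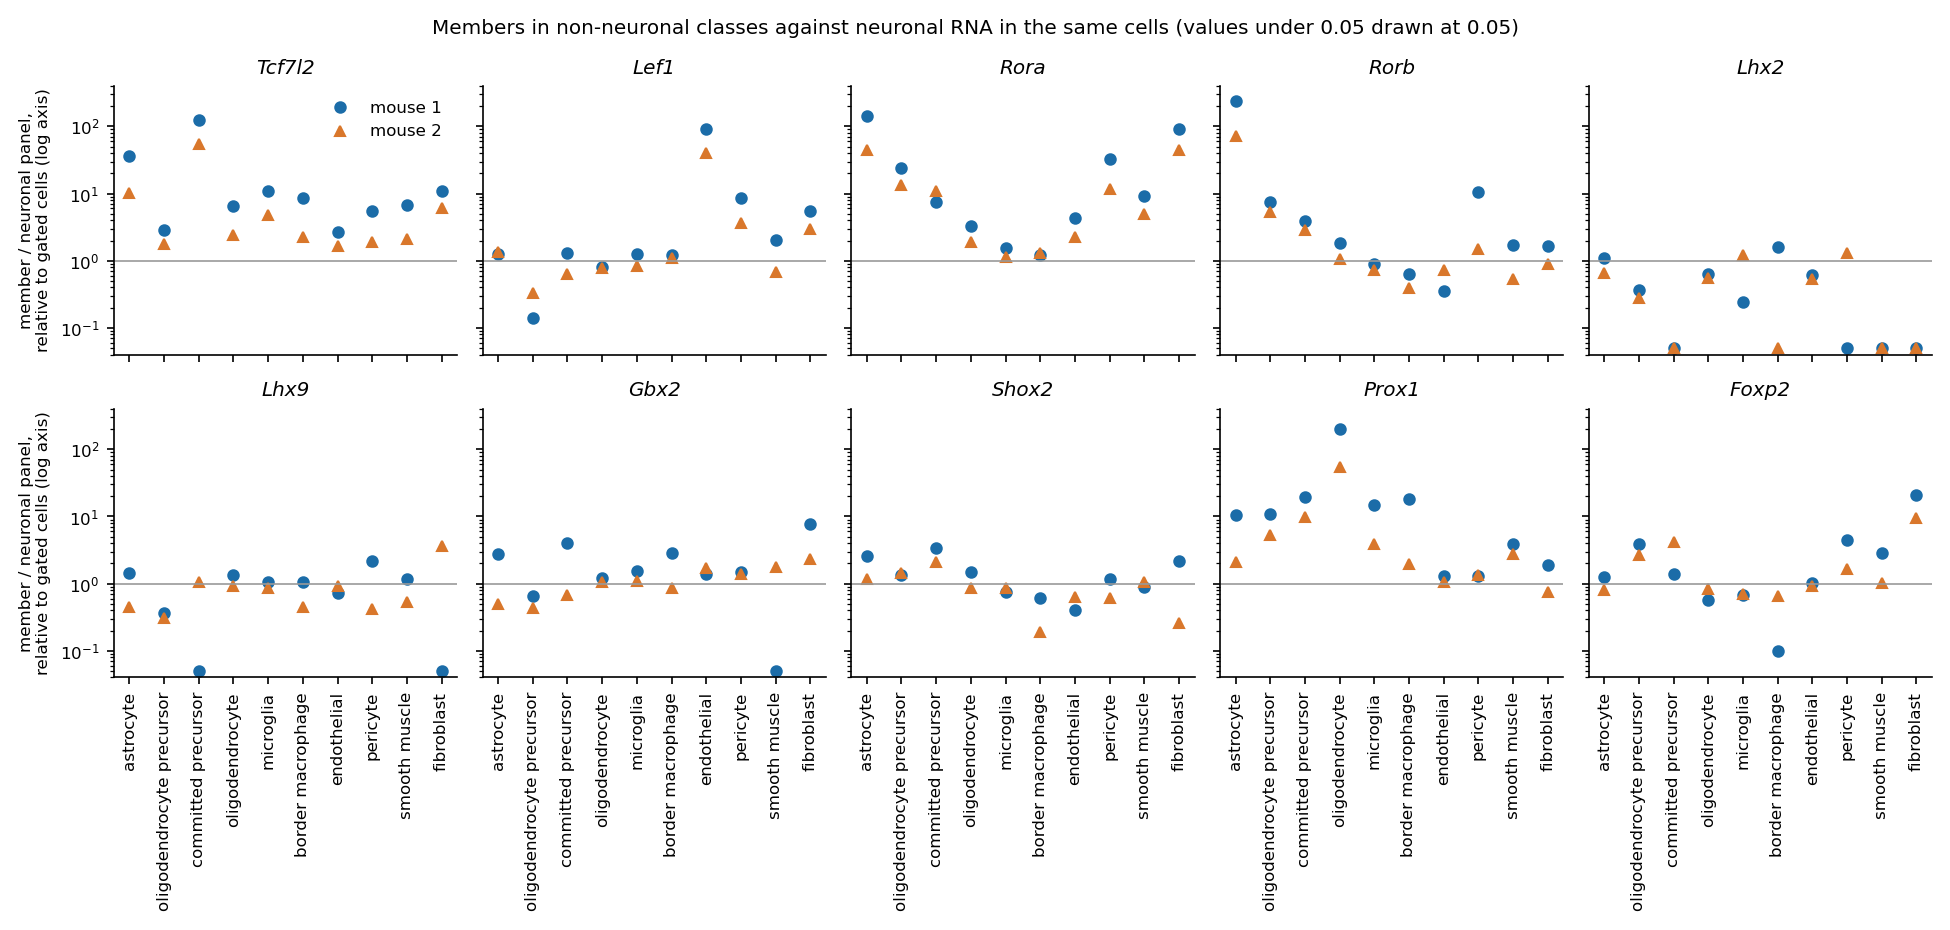
Counts of each member relative to the neuronal panel in 10 non-neuronal classes, divided by the same ratio in gated cells (log axis), with 1 point per mouse. Rora and Rorb in astrocytes, Prox1 in mature oligodendrocytes, Tcf7l2 in committed precursors and Lef1 in endothelial cells lie far above 1 in both mice.

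In astrocytes against the other non-neuronal classes, 3 members were called higher and 0 lower, beside 21.7% and 12.8% of all tested genes. They were Rorb (6.39 ± 0.33, adjusted p = 4.12e-12 in edgeR's test), Rora (3.63 ± 0.25) and Tcf7l2 (1.77 ± 0.16). After thinning, Rorb was detected in 99.3% and 99.8% and Tcf7l2 in 99.1% and 98.6% of astrocytes. Before thinning the shares were 99.6% and 96.1% for Rorb and 99.6% and 96.1% for Tcf7l2. Thinning left out 214 and 215 astrocytes as too shallow. In endothelial cells Lef1 was called higher (6.28 ± 0.25, adjusted p = 1.08e-13 in edgeR's test), and Prox1 (-1.83 ± 0.43) and Tcf7l2 (-1.04 ± 0.21) lower, beside 14.1% of all genes higher and 10.6% lower. Tcf7l2 fell under the fold limit there with at least 5000 UMIs per cell (-0.95) and with no gene filter (-0.95), and stood at -0.72 in mouse 2 alone. Rorb was called lower in endothelial cells with at least 5000 UMIs per cell (-1.95) and with at most 5% mitochondrial UMIs (-1.90).

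Members differed along the oligodendrocyte lineage. In precursors against mature oligodendrocytes, 4 members were called higher and 1 lower, beside 22.3% and 14.0% of all genes. Rora (4.30 ± 0.50), Rorb (3.54 ± 0.64), Foxp2 (3.48 ± 0.74) and Shox2 (1.68 ± 0.44) were higher in precursors and Prox1 was lower (-2.41 ± 0.42). The ratio of Shox2 to the neuronal panel in precursors was 1.32 and 1.43, and 4.35 and 3.66 with Snap25 and Syt1 left out of the panel. Shox2 lost its call without the mouse as a block (adjusted p = 0.0528 in edgeR's test). In committed precursors against the mean of both ends, Tcf7l2 was called higher (3.51 ± 0.21, adjusted p = 7.90e-10 in edgeR's test) and Prox1 lower (-2.30 ± 0.40), beside 7.85% of all genes in each direction. Thinned shares of cells with Tcf7l2 were 98.2% and 96.1% in committed precursors and 50.4% and 52.1% in mature oligodendrocytes. Before thinning they were 95.7% and 98.6% and 75.6% and 62.5%. Too shallow for thinning were 4 and 10 committed precursors and 59 and 742 mature oligodendrocytes.

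Genes known to work with the members were read from 5 lists. Of 17 genes of the TCF/LEF pathway, 8 were called higher and 2 lower in endothelial cells, with a list median of 0.70 beside -0.02 over all genes and shares of 14.1% and 10.6% of them. Among those higher were the Wnt antagonists Notum (7.09 ± 0.43) and Apcdd1 (4.80 ± 0.23) and the Lef1 relative Tcf7 (5.36 ± 0.28). In committed precursors 4 of the list were called higher and 4 lower, beside 7.85% and 7.85% of all genes (list median -0.19 beside -0.11 over all genes), with Tcf7l1, a paralog of Tcf7l2, at 3.71 ± 0.31. In glutamatergic against habenular cells 3 of the 17 were called higher and 2 lower, beside 11.8% and 8.42% of all genes (list median -0.24 beside 0.05 over all genes), so the list's shares lay near those of all genes. Of the single genes, Tcf7 was lower (-4.72 ± 0.44), while Lgr5 (4.74 ± 0.69) and Nkd1 (2.69 ± 0.40) were higher but changed sign with the habenular marker panel.

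LIM cofactors bridge LIM-homeodomain proteins or compete for them. Of 6 measured, 2 were called higher and 2 lower in glutamatergic against habenular cells, beside 11.8% and 8.42% of all genes (list median -0.36 beside 0.05 over all genes). Lmo3 stood at 0.900 and 2.34 CPM in glutamatergic and at 251 and 212 CPM in habenular cells (-7.08 ± 0.40). Ldb2 stood at 40.5 and 185 CPM and at 2.13 and 7.86 CPM (4.51 ± 0.70). In precursors against mature oligodendrocytes 5 of the 6 were called higher, led by Ldb2 (5.95 ± 0.74), Lmo3 (5.94 ± 0.40) and Lmo1 (4.33 ± 0.67), beside 22.3% and 14.0% of all genes higher and lower (list median 3.17 beside 0.02 over all genes). The ratios to the neuronal panel in precursors were 0.366 and 0.282 for Lhx2 and 0.368 and 0.303 for Lhx9, and 1.21 and 0.724 and 1.21 and 0.777 with Snap25 and Syt1 left out of the panel.

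Of 7 ROR and clock genes, 5 were called higher and 1 lower in astrocytes, with a list median of 1.79 beside 0.12 over all genes and shares of 21.7% and 12.8% of them. Those higher included the clock genes Per2 (2.53 ± 0.26), Nr1d1 (2.06 ± 0.24) and Arntl (1.79 ± 0.16). In glutamatergic against habenular cells 2 were called higher, Nr1d1 (2.46 ± 0.41) and Arntl (2.32 ± 0.26), and 1 lower, beside 11.8% and 8.42% of all genes (list median 0.62 beside 0.05 over all genes). Of 3 tested forkhead and homeobox relatives, Foxp1 alone was called between glutamatergic and habenular cells, as higher (1.53 ± 0.31). This stands beside 11.8% of all genes higher and 8.42% lower, and the list median was -0.42 beside 0.05 over all genes. The sign of Foxp1 turned with the habenular marker panel.

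Among 27 other diencephalic factors, 10 were called higher and 10 lower in glutamatergic against habenular cells, beside 11.8% and 8.42% of all genes (list median 0.11 beside 0.05 over all genes). Hlf, a PAR bZIP factor, stood at 719 and 378 CPM against 19.8 and 22.7 CPM, and Neurod2, a proneural bHLH factor, at 0.274 and 0.0636 CPM against 47.3 and 16.5 CPM. Against GABAergic cells 10 were called higher and 8 lower, beside 5.93% and 4.21% of all genes (list median 0.39 beside 0.07 over all genes), with the homeodomain factor Meis2 at 2.11 and 0.611 CPM against 221 and 295 CPM (-7.39 ± 0.61). In astrocytes 16 were called higher and 3 lower, beside 21.7% and 12.8% of all genes (list median 2.12 beside 0.12 over all genes). Among those higher were Otx2 (9.54 ± 0.50) and Esrrg (6.36 ± 0.28).

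Other genes overlap several members, and no source used here states whether strand was used in counting. Without strand, reads of both genes of an opposite pair cannot be told apart, so the levels of these members are uncertain to that extent. Shox2 (GRCm38 chr3:66971727-66981771) shares exonic sequence with the protein-coding gene Rsrc1 on the opposite strand. Rsrc1 stood at 239 and 268 CPM in glutamatergic and at 126 and 161 CPM in habenular cells. In mature oligodendrocytes it stood at 185 and 205 CPM, where Shox2 had 2.91 and 5.88 CPM. In oligodendrocyte precursors Rsrc1 stood at 222 and 273 CPM, where Shox2 had 12.5 and 24.1 CPM. The part of Rsrc1 reads in the Shox2 counts was not tested. Prox1os, opposite to Prox1 (chr1:190118035-190170714), stood at 14.7 and 33.4 CPM in glutamatergic cells and at 52.8 and 60.05 CPM in mature oligodendrocytes, the classes with the most Prox1. D130058E05Rik, opposite to Gbx2 (chr1:89927956-89931179), stood at 14.2 and 20.3 CPM in glutamatergic and at 0.142 and 0 CPM in habenular cells.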

How the data were processed

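The authors deposited unnormalized UMI counts, 1 gene-by-barcode matrix for each of 2 thalamus libraries; Cell Ranger 7.1.0, Seurat 5 and mm10 are named, with no role, per the submitters' processing notes. No source used here states whether intronic reads were counted. From these counts, barcodes under 500 genes, under 1000 UMIs or over 15% mitochondrial UMIs were dropped and Scrublet doublets removed (181 and 262; 2.84% and 2.78%, below the 6.31% and 9.69% expected from loading, so some doublets may remain). Kept cells had a median of 17998 and 14759 UMIs. Cells were clustered with scanpy 1.11.5 (2000 variable genes, 30 components, resolution 1), with 196 genes held out: the members, the gene lists, and mitochondrial, ribosomal and haemoglobin genes. Classes were named from marker genes and needed at least 20 cells per mouse. Counts were summed per class and mouse and tested with edgeR 4.0.16 (TMM, filterByExpr, robust quasi-likelihood fit, class plus mouse, 12 residual degrees of freedom); DESeq2 1.42.0 was an alternative. The mouse number pairs the sums, since all classes were drawn from 2 shared animals, and enters as a block. The p-values rest on 2 mice and on a spread shared by all classes, and the classes were made from the same cells. The fit was also run on simulated data that had no mouse effect and the same spread for every gene. That run cannot test the pairing by mouse. The text names all 10 members and, from each of 5 lists (LIM cofactors, TCF/LEF pathway, ROR and clock genes, forkhead and homeobox relatives, other diencephalic factors), up to 3 called genes per comparison. Not all of those are printed. The members and lists were chosen with earlier results of these data known. Over the 7 comparisons, the 5 lists gave at most 16 genes called in a direction. Gene coordinates come from GENCODE vM21. Alternatives covered the test, scaling, gene and cell filters, gate, habenular choice, block, depth and leaving out a mouse.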

Additional observations from a re-analysis of the deposited data

How the results depend on the processing

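Of 650 values of single members under the alternatives, 592 were counted as unchanged and 7 as reversed. Where the fit or the cells were changed, unchanged means the same direction and the same side of the threshold. For a single mouse it means only a distance to the main value within the SD of the 2 single-mouse values. There the threshold was not checked, nor the direction of members without a call. With the habenular marker panel in place of clusters, 3 members were called between glutamatergic and habenular cells, against 8. Over all genes 1173 of 16771 were called, against 3398 of 16820. With the panel 5 named genes changed sign: Foxp2 (-0.35), Lhx2 (-0.28), Foxp1 (-0.46), Lgr5 (-0.63) and Nkd1, for which the Nkd1 log2 fold change, glutamatergic against habenular, was -0.0624. With at least 5000 UMIs per cell, Gbx2 (0.0443) and Lhx9 (0.12) in astrocytes and Foxp2 in endothelial cells (0.13) changed sign, as did Foxp2 in endothelial cells with at most 5% mitochondrial UMIs (0.35) and Gbx2 in oligodendrocyte precursors with no gene filter (-0.0679); none of these was called. The cause was not tested. Without the replicate block, 6 members were called between glutamatergic and habenular cells, 8 against GABAergic cells and 4 between oligodendrocyte precursors and mature oligodendrocytes, against 8, 9 and 5 with it. Of all 16820 tested genes, 2823, 1265 and 5703 were called without the block in these comparisons, against 3398, 1706 and 6110 with it. The share of gated cells with a member (median over the members) was 57.1%; it was 42.4% at 2 or more UMIs, 81.7% unthinned, 45.7% thinned to 5000 UMIs and 74.7% with the habenular panel. For members per gated cell and combinations the mean count was 6.01, and 4.66, 7.69 and 5.004 under the first 3 of these. In a single mouse, with no test, the members' median log2 fold change in endothelial cells changed sign between the animals. It was -0.39 in mouse 1 and 0.18 in mouse 2, beside -0.05 and -0.06 over all genes. In astrocytes the members' median was 0.97 and 0.21, beside 0.10 and 0.03 over all genes. In committed precursors it was -1.31 and -0.59, beside -0.13 and -0.11 over all genes. Pairs used in glia numbered 10 to 18 in a single mouse. DESeq2's size factors moved the median of all genes between oligodendrocyte precursors and mature oligodendrocytes from 0.02 to 0.19. Including neurons of unnamed clusters, chosen after seeing the data, gave the same 7 higher and 1 lower against habenular cells.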
